A study of Homo sapiens with 9 samples.

Results

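The 42 genes described here encode the machinery that copies DNA and divides the cell, and they were picked by symbol from a list set by function, a rule that uses no measured value. The list was set with earlier results of these data known. Each of the 42 was found once among the 60829 rows of the table. By role, 21 act in G1 and S phase and 21 in G2 phase and mitosis. RNA came from H1 cells, a standard human embryonic stem cell line, grown in a stem cell medium on vitronectin and passaged in clumps. The control clone (genotype WT, chrX-ctrl_H1) gave 4 libraries and the clone lacking HERVHlin on chromosome X (genotype knock out, chrX-KO_H1) gave 5, each from a sequential passage. HERVHlin belongs by name to HERVH, an endogenous retrovirus family that is transcribed in pluripotent cells. Each group is 1 clone, and the series design treats its passages like technical replicates, so p-values here reflect passage-to-passage spread within single clones. All 9 libraries carry a treatment label of differentiated cells.

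A dividing cell licenses its replication origins in G1, when CDC6 and CDT1 load the MCM2 to MCM7 ring onto DNA. In S phase CDC45 and the GINS complex turn that ring into an active helicase, PCNA clamps the polymerases to the template, and RRM1, RRM2 and TYMS supply deoxynucleotides. Cyclins D and E with their kinases release E2F factors, which switch on many of these genes. Later, cyclins A and B with CDK1, and FOXM1 as a transcription factor, drive entry into mitosis, where the kinases, motors and checkpoint proteins of the second group act. Human pluripotent stem cells are known for a short G1 phase and a large share of cells in S phase.

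Promoter letters of both roles are shown first. RefSeq promoters (GRCh38.p14) were at hand for 31 of the 42 genes, 15 of G1/S and 16 of G2/M, and the 250 bases before each start were searched on both strands. TTTGAA, the core of the cell cycle homology region that represses genes outside G2 and mitosis, was found before 9 of the 16 G2/M genes (BUB1B, CCNB2, CDC20, CDC25C, CDK1, KIF11, MKI67, PLK1 and TOP2A) and 1 of the 15 G1/S genes (RRM1). Over all 27305 genes in the promoter table the share was 16.05%. An E2F site written as TTTCGCGC or TTTGGCGC was found before 3 G1/S genes (E2F1, MCM6 and MCM7) and 1 G2/M gene (CDK1), against 1.198% of all genes. CCAAT was found before 11 G1/S and 14 G2/M genes, against 37% of all genes. A match is only a match of letters. The following 100 bases directly before the start show both kinds, with the E2F letters in capitals for MCM6 (chr2:135876444-135876543, minus strand, a forward and a reverse match that overlap) and E2F1 (chr20:33686386-33686485, minus strand), and TTTGAA in capitals for MKI67 (2 matches, chr10:128126424-128126523, minus strand) and, on the reverse strand, KIF11 (chr10:92593030-92593129, plus strand).
MCM6: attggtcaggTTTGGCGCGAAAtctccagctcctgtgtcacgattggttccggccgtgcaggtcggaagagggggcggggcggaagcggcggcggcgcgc
E2F1: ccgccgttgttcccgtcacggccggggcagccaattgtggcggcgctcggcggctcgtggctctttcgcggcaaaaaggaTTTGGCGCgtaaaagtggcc
MKI67: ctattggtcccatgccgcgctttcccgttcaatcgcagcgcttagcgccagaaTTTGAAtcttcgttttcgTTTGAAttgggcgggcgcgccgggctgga
KIF11: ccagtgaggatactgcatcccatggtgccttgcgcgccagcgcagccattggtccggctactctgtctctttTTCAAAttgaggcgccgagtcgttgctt

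The libraries held 19838682 to 31192630 reads recovered from normalized counts, and each of the 42 genes had between 50 and 5381 of them per library. The row gene.human_00015544, which the authors mark with 2 others as knocked out, measured 3428, 2119, 3935 and 1316 normalized counts in controls 1 to 4 and 25.9, 58.6, 65.2, 65.0 and 73.0 in knockouts 1 to 5, so it matched the labels. Another marked row, gene.human_00001528, spanned 312 to 1036 in the control clone and 68.0 to 169 in the knockout clone. The third marked row, gene.human_00011326, overlapped between the clones, with 1711 to 3433 in the control clone and 1149.5 to 1861 in the knockout clone. Its log2 fold change, knockout minus control, was -0.68 (adjusted p = 0.436 by limma). Protein-coding genes held 26.3% (knockout 1) to 50.8% (control 3) of reads. Control 3 stood apart. Its well expressed coding genes (mean of at least 50 normalized counts, 11677 genes) lay 0.44 above their mean on the log2 scale, against -0.22 to 0.13 in the other 8. Values with each library set to the same coding median are therefore given as well, called coding-gene scaling. That scaling moved the median log2 fold change of all tested rows from 0.01 to 0.12. All 10 pluripotency markers passed the filter on low counts, and their sum was 41616 to 84474 normalized counts in the control clone and 36075 to 53136 in the knockout clone. Of these markers 9 had a negative log2 fold change and 1, DPPA4, a positive one, and 0 passed at an adjusted p under 0.05 in limma. Their median was -0.39, -0.27 with coding-gene scaling and -0.22 without control 3. Over all 9 libraries 7 of 8 mesendoderm markers averaged under 10 normalized counts, with SOX17 and FOXA2 at 0 in all knockout libraries. An average under 10 also held for 5 of 8 neural markers, 6 of 8 trophectoderm and amnion markers and 3 of 8 fibroblast markers. NEUROG1, NEUROG2 and CDX2 among them were at 0 in all knockout libraries. Well above that level in each library were the neural markers NES and OTX2 and the trophectoderm and amnion markers KRT7 and GABRP. So were the fibroblast markers COL1A1, COL1A2, THY1 and PDGFRB. Sums of these lists spanned 20.8 to 43.6 and 11.1 to 25.9 for mesendoderm, 665 to 1635 and 767 to 1076 for neural ectoderm in control and knockout libraries. They spanned 1745 to 4593 and 655 to 1782 for trophectoderm and amnion, of which GABRP gave most, and 3368 to 6009.7 and 2942 to 4628 for fibroblasts. GABRP, MIXL1 and ZIC1 did not overlap between the clones, each lower in the knockout clone. The log2 fold change was -1.74 for GABRP (adjusted p = 0.104 by limma) and -0.71 for MIXL1 (adjusted p = 0.63 by limma). ZIC1 did not pass the filter on low counts. The part of all these markers in the results below was not tested.

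None of the 42 genes passed in either direction when the knockout clone was set against the control clone. Limma on log2(normalized count + 1) gave 0 higher and 0 lower at an adjusted p under 0.05, where 0.54% of the 27777 tested rows passed, and 0 had an unadjusted p under 0.05, against 8.63% of all rows. The smallest limma adjusted p was 0.649. EdgeR's quasi-likelihood test on the recovered reads likewise called 0 (0.544% of all rows) and gave 0 unadjusted p under 0.05. DESeq2 called 0 as well (2.05% of rows with an adjusted p), with 2 unadjusted p under 0.05, those of MCM6 and CCND1. The authors' deposited table holds the same DESeq2 result for these genes and is not a further test. For edgeR and DESeq2 the share of all rows at an unadjusted p under 0.05 was not counted. Nor was it counted with the replicate number as a block or with 1 library left out. With coding-gene scaling 0 of the 42 were called (0.576% of all rows) and 2, TYMS and BUB1, had an unadjusted p under 0.05 (8.55% of all rows). The limma run with the replicate block called 0 (0.155% of all rows), and 2, MCM6 and CDC6, had an unadjusted p under 0.05. For 0 of the 42 did the libraries of the clones stay apart without overlap, against 3.95% of all tested rows. With a library left out this share was not counted.

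Log2 fold changes, knockout minus control, ran from -0.49 for MCM6 to 0.20 for BUB1, with a median of -0.07 beside 0.01 over all tested rows and -0.09 over protein-coding rows. For 39 of the 42 the 95% interval lay between -1 and 1, so that it held neither a 2-fold rise nor a 2-fold fall, and for MCM6, CCND1 and CCNE1 it reached down to -1.05, -1.02 and -1.03. Differences inside these intervals remain possible at this spread, and the intervals are not limits of detection. The sign depended on the scaling and on control 3: 26 of 42 limma estimates were negative on the deposited normalized counts, 16 with coding-gene scaling and 6 without control 3. By role, 17 of 21 G1/S and 9 of 21 G2/M limma estimates were negative, with medians of -0.13 and 0.01. With coding-gene scaling 11 and 5 were negative, and 4 and 2 were when control 3 was left out. Of the authors' own deposited log2 fold changes 31 were negative. The median limma estimate was 0.05 with coding-gene scaling, 0.15 without control 3 and -0.17 without control 1. A smaller share of cells in a phase and less RNA per cell cannot be told apart in bulk RNA.

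**Figure D1:**
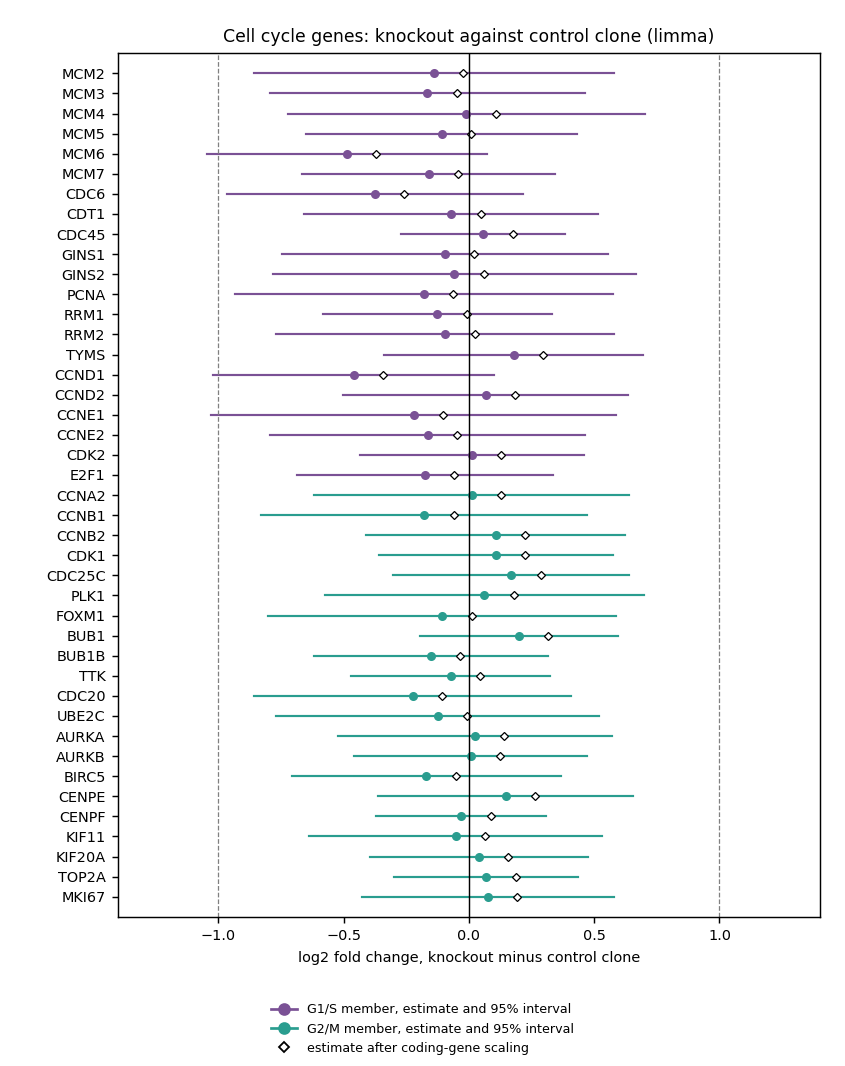
Log2 fold change of each of the 42 genes, knockout minus control clone (horizontal axis), by limma over 4 control and 5 knockout libraries. Filled points and lines are estimates with 95% intervals, violet for G1/S and green for G2/M, open diamonds are estimates after coding-gene scaling, and dashed lines mark a 2-fold change. All 42 intervals cross 0, and only those of MCM6, CCND1 and CCNE1 reach past -1.

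Of the 11 licensing and helicase genes 1 had a positive estimate. With coding-gene scaling 6 of the 11 were positive, and without control 3 9 were. MCM2, a subunit of the helicase ring, measured 463, 1070.5, 1450.3 and 646 normalized counts in controls 1 to 4 and 672, 829, 1026, 581 and 713 in knockouts 1 to 5. Control 3 was highest and control 1 lowest of all 9, so the control libraries enclosed the knockout libraries. The log2 fold change was -0.14 (standard error 0.32, adjusted p = 0.91 by limma). MCM5, another subunit, measured 1053, 1565, 2506 and 1433 in the controls and 1316, 1211, 1886, 1404 and 1500.0 in the knockouts. Again controls 3 and 1 were the extremes, with a log2 fold change of -0.11 (standard error 0.24, adjusted p = 0.908 by limma). MCM6 (chromosome 2, 135839626 to 135876426, GRCh38), with the overlapping E2F letters printed above, had the lowest estimate of the 42. It measured 679, 1056, 1653 and 863 in the controls and 638, 691, 970.0, 649 and 682 in the knockouts. Knockouts 1, 2, 4 and 5 lay near the lowest control, knockout 3 lay among the controls, and the log2 fold change of -0.49 did not pass (standard error 0.25, adjusted p = 0.649 by limma). It kept its sign in every alternative run, from -0.68 without control 1 to -0.25 without control 3, with no adjusted p under 0.05.

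The other ring subunits had estimates nearer to 0 than MCM6, -0.17 for MCM3 (SE 0.28), -0.01 for MCM4 (SE 0.32) and -0.16 for MCM7 (SE 0.23). Within the control clone the highest library of these 6 subunits exceeded the lowest by 2.28 times for MCM7 up to 3.26 times for MCM4. CDC6, the loader of the ring, measured 653, 966, 1383 and 682 in the controls and 535, 745, 799, 503 and 886 in the knockouts. Its lowest values were those of knockouts 4 and 1, and the other knockouts lay above controls 1 and 4. The log2 fold change was -0.38 (standard error 0.26, adjusted p = 0.759 by limma) and, with the replicate number as a block, -0.47 (unadjusted p = 0.0115, limma adjusted p = 0.31). Knockout 5, the highest knockout here, has no partner of the same number and does not enter the block estimate. With no block the log2 fold change was -0.16 without control 3 and -0.52 without control 1. CDT1, its partner in loading, averaged 849 ± 291 normalized counts over the control libraries (SD, n = 4) and 799.8 ± 218 over the knockout libraries (SD, n = 5). CDC45, which joins the ring when origins fire, was the steadiest gene of this role at 267 ± 40.2 and 277 ± 24.8. GINS1 and GINS2, subunits of the GINS complex, had log2 fold changes of -0.10 (SE 0.29) and -0.06 (SE 0.32), and GINS2 varied 3.597 times within the control clone.

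PCNA, the sliding clamp, measured 1530.0, 2236, 4905 and 1880.4 normalized counts in controls 1 to 4 and 1641, 2253, 3080.0, 1599 and 2205 in knockouts 1 to 5. A single library, control 3, lay above all others, and the remaining 8 interleaved. The log2 fold change was -0.18 (standard error 0.34, adjusted p = 0.893 by limma). RRM2, the small subunit of ribonucleotide reductase, measured 623, 1335, 1863 and 1323 in the controls and 933, 945, 1425, 987 and 1421 in the knockouts. Control 1 was lowest, and the estimate was -0.10 (standard error 0.30, adjusted p = 0.933 by limma). RRM1, the large subunit, had 1031 ± 323 and 923 ± 146 normalized counts (SD, n = 4 and 5), with an estimate of -0.13. TYMS, thymidylate synthase (chromosome 18, 657604 to 673578), measured 737, 802, 1541 and 792 in the controls and 972, 1166, 1265, 861 and 1000.2 in the knockouts. Apart from control 3, all controls lay below all knockouts. Its log2 fold change was 0.18 (standard error 0.23, adjusted p = 0.845 by limma), 0.43 without control 3 (unadjusted p = 0.0183, limma adjusted p = 0.501) and 0.30 with coding-gene scaling (limma adjusted p = 0.582). Its exons share 967 bases with ENOSF1 on the opposite strand, and use of the strand in counting is not stated.

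Among the regulators of the G1/S step, CCND1, cyclin D1, which answers to growth signals (chromosome 11, 69641087 to 69654474), measured 451, 864, 912 and 452 normalized counts in controls 1 to 4 and 500.0, 487, 493, 353 and 485 in knockouts 1 to 5. Controls 2 and 3 lay far above the other 7 libraries, and controls 1 and 4 lay among the knockouts. The log2 fold change of -0.46 did not pass (standard error 0.25, adjusted p = 0.675 by limma). CCND2, cyclin D2, the more abundant of both D cyclins per kilobase of mRNA (299 against 129 normalized counts per kilobase over all libraries), measured 2437, 1492, 2470.4 and 1255 in the controls and 1840.2, 2802, 1891, 1561 and 1707 in the knockouts. The clones overlapped, with control 4 lowest and knockout 2 highest, and the estimate was 0.07 (standard error 0.25, adjusted p = 0.944 by limma). CCNE1, the cyclin E that activates CDK2, measured 147, 284, 517 and 238 in the controls and 181, 166, 327, 198 and 327 in the knockouts. Control 3 was highest and control 1 lowest, and the estimate was -0.22 (standard error 0.36, adjusted p = 0.88 by limma).

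E2F1, the transcription factor held back by RB, measured 146, 211, 289.9 and 165 in the controls and 174, 206, 206, 132 and 159.9 in the knockouts. Except for control 3, both clones lay in 1 band, and the log2 fold change was -0.18 (standard error 0.23, adjusted p = 0.847 by limma). CDK2, the kinase of the G1/S step, stood at 351 ± 104 and 346 ± 49.1 normalized counts (SD, n = 4 and 5). CCNE2, the other cyclin E, was the scarcest of the 42 per kilobase (28.3 normalized counts) and had another library pattern, with 149.8 in control 1 and 76.6 in control 3. Its exons share 1629 bases with INTS8 on the opposite strand, which had 1106 normalized counts on average against 94.1 for CCNE2. In all, 14 of the 42 genes share exon bases with a gene on the opposite strand and 3 with one on the same strand in GENCODE 29. The share of such reads was not measured.

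The genes that drive mitotic entry had 5 positive estimates of 7, 6 with coding-gene scaling and 7 without control 3. CCNB1, cyclin B1, measured 1428, 2155, 4177 and 2155 normalized counts in controls 1 to 4 and 1771, 1858, 2913, 1803 and 1977 in knockouts 1 to 5. Controls 3 and 1 were again the highest and the lowest library, and the log2 fold change was -0.18 (standard error 0.29, adjusted p = 0.878 by limma). CDK1, the mitotic kinase, measured 2644, 1888, 2371 and 1643 in the controls and 2004, 2889.7, 2876, 1919 and 1853 in the knockouts. Here knockouts 2 and 3 were highest and control 1 came next, and the estimate was 0.11 (standard error 0.21, adjusted p = 0.896 by limma). PLK1, a kinase of mitotic entry and spindle assembly, measured 783, 943, 1948 and 742 in the controls and 843, 965, 1387, 1034 and 1149.9 in the knockouts. Only control 3 lay outside the band from 742 to 1387, and the estimate was 0.06 (standard error 0.28, adjusted p = 0.955 by limma). FOXM1, a transcription factor of G2/M genes, measured 455, 785, 1468 and 583 in the controls and 638, 570.5, 834, 615 and 840.3 in the knockouts. Its controls enclosed all knockouts, with an estimate of -0.11 (standard error 0.31, adjusted p = 0.927 by limma).

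CCNA2 and CCNB2, cyclins of S phase to mitosis, had log2 fold changes of 0.01 (SE 0.28) and 0.11 (SE 0.23). CDC25C, the phosphatase that activates CDK1, measured 231, 283, 467 and 299 in the controls and 319, 328, 449, 333 and 323 in the knockouts. With all libraries the clones overlapped, and the estimate was 0.17 (standard error 0.21, adjusted p = 0.84 by limma). Without control 3, the highest library, they did not overlap (log2 fold change 0.37, unadjusted p = 0.0496, limma adjusted p = 0.704). The share of all rows that do so without control 3 was not counted.

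Spindle checkpoint and anaphase genes gave the highest estimate of the 42 and 4 negative ones. BUB1, a checkpoint kinase at kinetochores (chromosome 2, 110637698 to 110678114), measured 1233, 1293, 2157 and 1659 normalized counts in controls 1 to 4 and 1792, 1673, 1939, 1812 and 1669.5 in knockouts 1 to 5. The 5 knockouts lay within 1.16 times of each other, whereas the controls varied 1.75 times, with control 3 above and the other 3 controls below all knockouts. The log2 fold change was 0.20 (standard error 0.18, adjusted p = 0.801 by limma). It was 0.36 without control 3 (limma adjusted p = 0.549). CDC20, the activator of the anaphase-promoting complex, measured 906, 1095, 2297 and 1019.7 in the controls and 895, 1159, 1490.5, 909.6 and 938 in the knockouts. Control 3 alone lay apart, and the estimate was -0.22 (standard error 0.28, adjusted p = 0.841 by limma). UBE2C, the ubiquitin-conjugating enzyme of that complex and the most abundant of the 42 per kilobase (2769.9 normalized counts), measured 2652, 2099, 4352 and 1715 in the controls and 1829, 2874, 3269.8, 2011 and 1984 in the knockouts. Control 4 was lowest and control 3 highest, with an estimate of -0.12 (standard error 0.29, adjusted p = 0.911 by limma). BUB1B and TTK, further checkpoint kinases, had estimates of -0.15 (SE 0.21) and -0.07 (SE 0.18).

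AURKA, a kinase of centrosomes and spindle poles, measured 530.2, 505, 1023 and 485 normalized counts in controls 1 to 4 and 505, 654, 815, 597 and 539.6 in knockouts 1 to 5. Except for control 3 the libraries lay between 485 and 815, and the log2 fold change was 0.02 (standard error 0.24, adjusted p = 0.982 by limma). AURKB and BIRC5, partners in the chromosomal passenger complex, had 0.01 (SE 0.21) and -0.17 (SE 0.24). TOP2A, the topoisomerase that untangles chromosomes, measured 2165, 1909, 2684 and 1709.7 in the controls and 1858, 2378, 2504, 2129 and 2132 in the knockouts. Its controls enclosed its knockouts, with an estimate of 0.07 (standard error 0.16, adjusted p = 0.913 by limma). MKI67, the proliferation marker that coats mitotic chromosomes, measured 612, 604, 987 and 905 in the controls and 758, 546, 881, 1007 and 887 in the knockouts. Knockout 2 was lowest and knockout 4 highest, so the knockouts enclosed the controls, and the estimate was 0.08 (standard error 0.22, adjusted p = 0.929 by limma). The kinesins KIF11 and KIF20A had -0.05 (SE 0.26) and 0.04 (SE 0.19), and the kinetochore genes CENPE and CENPF 0.15 (SE 0.23) and -0.03 (SE 0.15). CENPE was at 0.014 without control 1 and 0.30 without knockout 2.

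**Figure D2:**
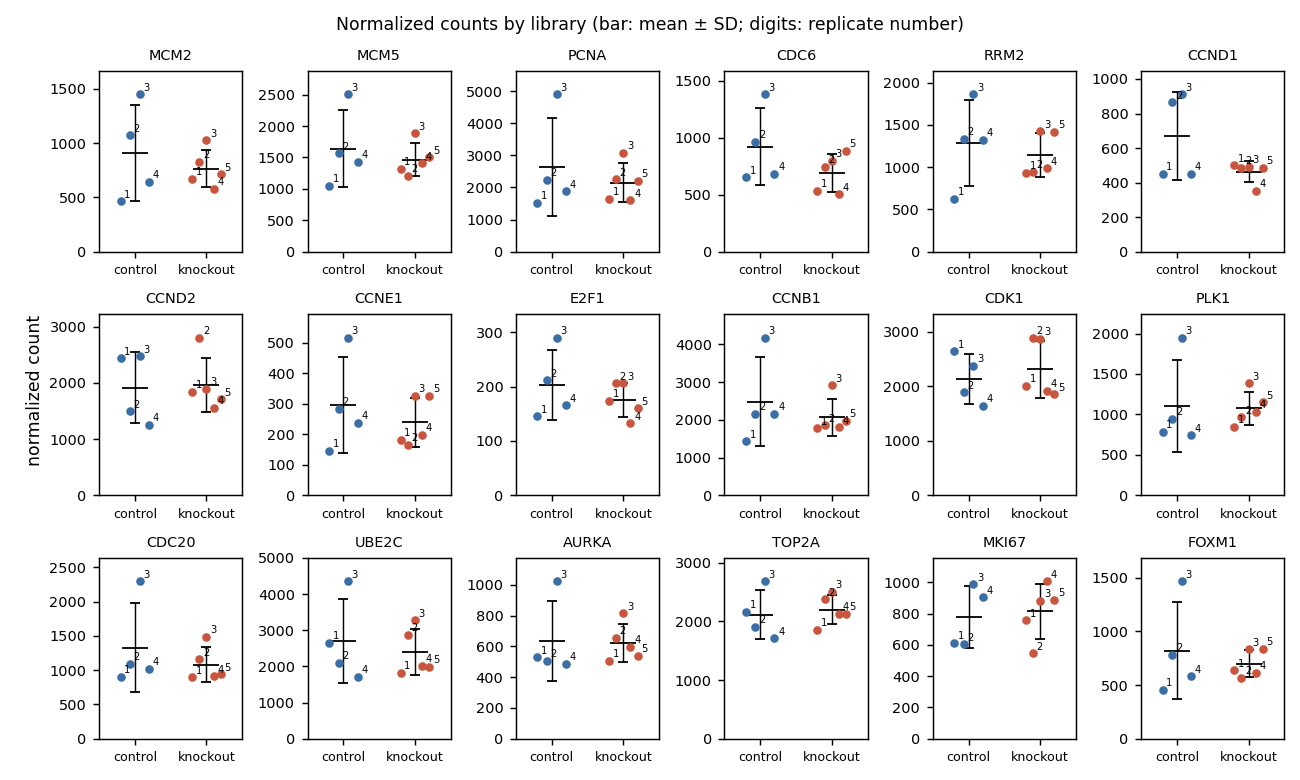
Normalized counts (vertical axes, from 0) of 18 of the 42 genes in the 4 control libraries (blue) and 5 knockout libraries (red), with digits for the replicate number and bars for mean ± SD. Control 3 is the highest library for most of these genes, and the groups overlap for each of the 18.

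Libraries of 1 clone varied, with a median highest-to-lowest ratio over the 42 genes of 2.11 over the controls and 1.56 over the knockouts. Control 3 had the highest normalized count of all 9 libraries for 34 of the 42 genes, and control 1 the lowest for 19. With coding-gene scaling control 3 was still highest for 21 and control 1 lowest for 24, among them 5 of the 6 MCM genes. On that scale the G1/S genes had a median deviation from their own means of -0.39 in control 1, 0.18 in control 2, 0.31 in control 3 and 0.02 in control 4 (log2). In knockouts 1 to 5 it was -0.09, -0.01, 0.15, -0.07 and 0.01. The G2/M genes had -0.30, -0.06, 0.15 and -0.12 in controls 1 to 4 and -0.13, -0.03, 0.24, 0.18 and 0.10 in knockouts 1 to 5. Control 1 was thus the lowest library for both roles, and the high ends were control 3 for G1/S and knockout 3 for G2/M.

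The control clone was the more variable. The SD of log2 values was larger over its 4 libraries than over the 5 knockout libraries for 39 of the 42 genes, with medians of 0.50 and 0.26. The same was true of 80.5% of well expressed coding genes, and the count fell to 23 of 42 without control 3 and was 37 without control 1. CDK1, CENPE and CENPF were the exceptions. Summed over each role, G2/M genes had 1.47, 1.11, 1.099 and 1.18 times the normalized counts of G1/S genes in controls 1 to 4 and 1.26, 1.298, 1.296, 1.398 and 1.203 times in knockouts 1 to 5, a ratio that does not depend on the scaling of a library. Control 1 had the highest ratio and control 3 the lowest, and all 5 knockouts lay above controls 2 to 4 and below control 1. Abundant genes weigh most in such sums. The median log2 deviation of G2/M genes minus that of G1/S genes was 0.09, -0.25, -0.15 and -0.13 in controls 1 to 4. It was -0.04, -0.03, 0.09, 0.25 and 0.08 in knockouts 1 to 5, so knockout 4 was highest and control 2 lowest. The cause was not tested.

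**Figure D3:**
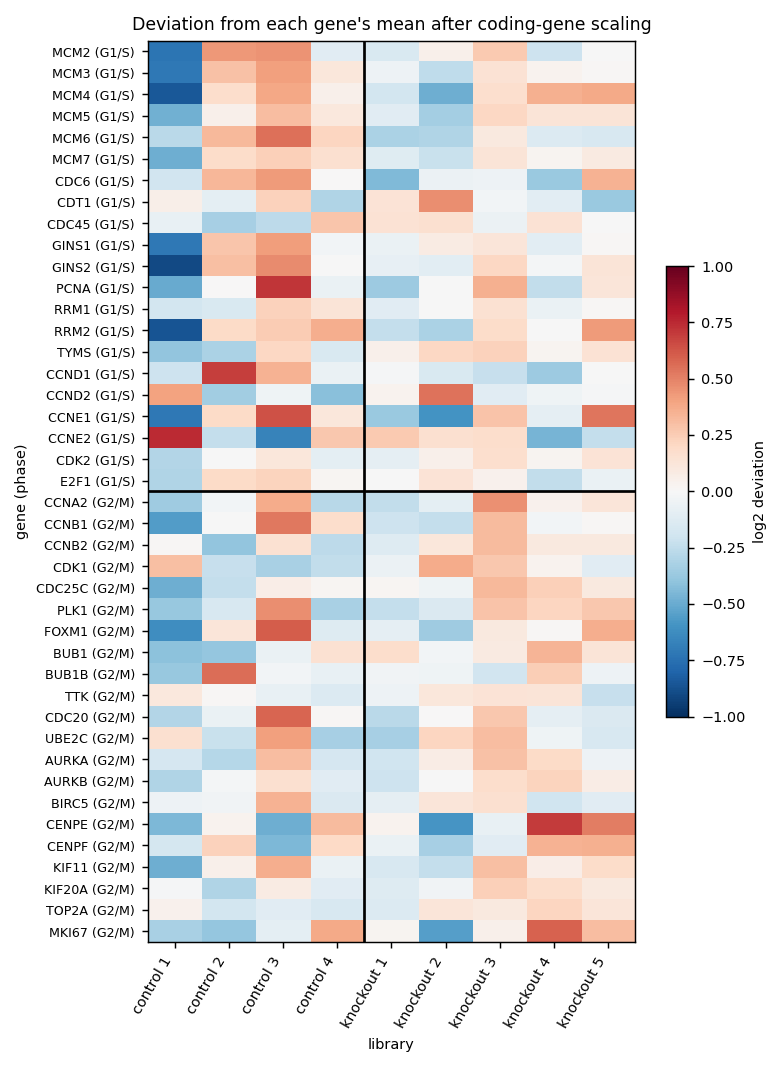
Log2 deviation of each of the 42 genes (rows, G1/S above the line) from its own mean over 9 libraries (columns, control left of the line) after coding-gene scaling, red above and blue below the mean. Control 1 is blue for most G1/S genes, with CCNE2 and CCND2 as the clearest red exceptions, and CENPE and MKI67 are reddest in knockout 4.

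CENPE, CENPF and MKI67, whose longest mRNAs exceed 8 kb, differed in library pattern from most of the 42. After coding-gene scaling MKI67 deviated by 0.59 in knockout 4, 0.38 in control 4 and 0.31 in knockout 5, and by -0.55 in knockout 2. CENPE deviated by 0.70, 0.32, 0.51 and -0.59, and CENPF by 0.35, 0.20, 0.35 and -0.33 in the same 4 libraries. In these 4 libraries the 3 genes deviated the same way. In control 2 they did not, with -0.38 for MKI67, 0.03 for CENPE and 0.23 for CENPF, and in control 3 MKI67 was at -0.10 against -0.48 and -0.45. Over the 1020 well expressed coding genes with mRNAs over 8 kb the median deviation was 0.19 in knockout 4, 0.13 in control 4, 0.07 in knockout 5, -0.05 in knockout 2 and -0.27 in control 3. For the 2396 genes with mRNAs up to 2 kb it was -0.14, -0.11, -0.08, 0.03 and 0.28. Length classes therefore shifted between libraries, most in control 3, and their part in the values of the 42 genes was not tested.

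**Figure D4:**
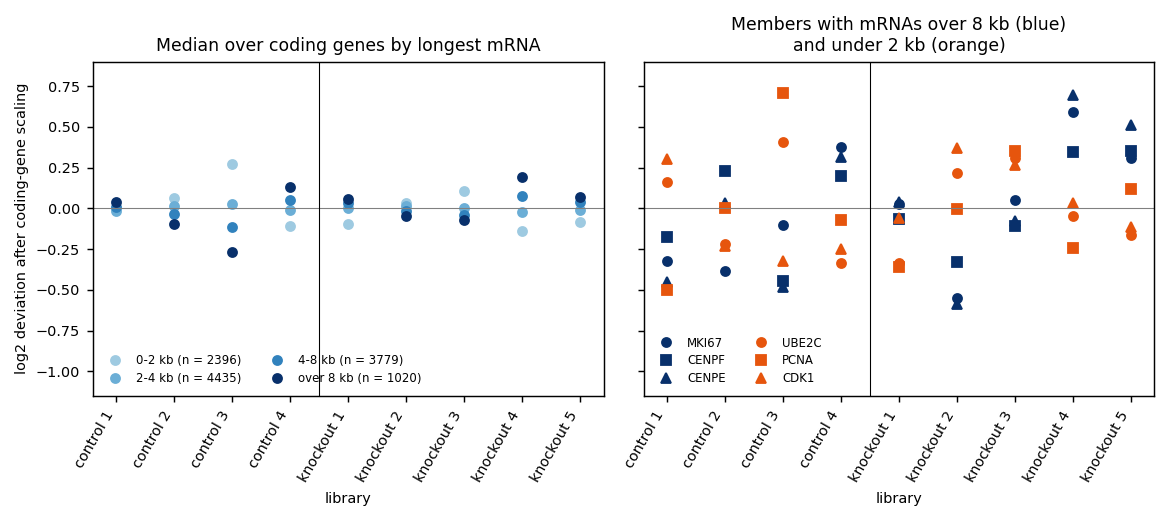
Log2 deviation after coding-gene scaling (vertical axis) by library, as the median over well expressed coding genes in 4 classes of longest mRNA (left) and for 3 genes with mRNAs over 8 kb and 3 with mRNAs up to 2 kb (right). In control 3 the classes spread from -0.27 to 0.28, and CENPE and MKI67 are highest in knockout 4, where CENPF is at 0.35.

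Further genes of the same processes were counted from lists chosen by function. Of 46 other replication genes, all tested, 0 passed in limma (0 at an unadjusted p under 0.05 as well), and their median log2 fold change was -0.05 (0.07 with coding-gene scaling). The smallest p-values belonged to CHAF1A, a histone chaperone at forks (-0.41, standard error 0.24, adjusted p = 0.688 by limma), POLE2, a polymerase epsilon subunit (0.20, standard error 0.12, adjusted p = 0.694 by limma), POLA2 of the primase complex (0.27) and ORC6 of the origin recognition complex (0.17). Of 52 other mitotic genes 0 passed either (0 at an unadjusted p under 0.05), with a median of 0.01 (0.13 with coding-gene scaling). BUB3, a checkpoint protein, came nearest at 1912 ± 539 and 2515 ± 371 normalized counts (estimate 0.42, standard error 0.20, adjusted p = 0.596 by limma). KIF18A, a kinesin that aligns chromosomes (0.31, standard error 0.15, adjusted p = 0.615 by limma), NEK2, a centrosome kinase (0.37), and ANLN, a cytokinesis protein (-0.28), followed. EdgeR and DESeq2 called 0 in these lists too.

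CDK inhibitors, the RB and E2F families and further regulators were counted in a list of 34 genes, of which 32 were tested. The list holds drivers of the cycle, such as CDK4, CDK6, CCND3 and MYC, beside its brakes. Of the 32 genes 0 passed in limma (0 at an unadjusted p under 0.05). Their median log2 fold change was -0.17, -0.05 with coding-gene scaling and 0.04 without control 3, and is not a value for brakes alone. CDKN1A, the CDK inhibitor p21, measured 392, 342, 320.0 and 217 normalized counts in controls 1 to 4 and 173, 687, 229, 188 and 105 in knockouts 1 to 5. Knockout 2 alone exceeded all controls, the other knockouts lay at or below 229, and the estimate was -0.48 (standard error 0.46, adjusted p = 0.81 by limma) with all libraries and -0.89 without knockout 2 (limma adjusted p = 0.388). CDKN1C, p57, measured 166, 66.8, 121 and 53.3 in the controls and 53.6, 105, 65.2, 46.3 and 34.6 in the knockouts, with an estimate of -0.69 (standard error 0.40, adjusted p = 0.691 by limma). CDKN2A, which encodes p16, was low in both clones at 47.8, 94.8, 41.0 and 11.7 in the controls and 68.0, 35.0, 15.1, 4.48 and 11.8 in the knockouts, with an estimate of -1.03 (standard error 0.78, adjusted p = 0.775 by limma), -1.58 without control 4 and -0.57 without knockout 4. CDKN1B, p27, stood at -0.10 (SE 0.24) and RB1 at -0.33 (SE 0.25), the latter -0.12 without control 3 and -0.48 without control 1. RBL2, an RB relative of quiescent cells, stood at 0.27 (standard error 0.13, adjusted p = 0.611 by limma), and E2F7, a repressing E2F, at -0.25 (SE 0.14). CDK4, CDK6 and CCND3, the partners of the G1 step, had -0.18, -0.44 and -0.40 (SE 0.26, 0.29 and 0.31).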

How the data were processed

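Total RNA was measured in 9 libraries, 4 of the control clone and 5 of the knockout clone, grouped by their titles. Per the labels' protocols, RNA was taken by column with DNase treatment and libraries followed a stranded total RNA protocol, with ribosomal RNA depleted per the series design. The submitters' processing notes name fastp, kallisto, DESeq2 and the hg38 build. Not given in the sources used here are their versions, the annotation release and whether strand was used in counting. The authors deposited a signal per gene and library, that is, counts scaled by a library-wide size factor, called normalized counts. The deposited log2 fold changes, test scores and p-values are the authors' own. DESeq2 run here on the recovered reads gave their log2 fold changes to within 4.1e-10 for the 42 genes.

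Reads were recovered by dividing by the smallest value above 0 in each library, and 100% of values were whole within a relative 1e-06. Of 60829 rows, 27777 passed edgeR's filterByExpr (minimum count 10). Limma (version 3.58.1 under R 4.3.3) was the main test, run on log2(normalized count + 1) with its trend option, the group as the only term, two-sided, adjusted by Benjamini-Hochberg over all tested rows at 0.05. Folds on this scale are slightly understated for low genes. Alternatives were edgeR (version 4.0.16), DESeq2 (version 1.42.0), coding-gene scaling over 11677 genes, no filter, a pseudocount of 0.5, a block for the replicate number, and each library left out. No other column of per-sample values was used. Scripts were tested on simulated data.

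Because the labels' batch tag carries the replicate number, equal numbers were treated as pairs in the run with the replicate block. All other fits were unpaired. Same-numbered libraries deviated from their clone's mean with correlations of 0.07, 0.02, 0.25 and 0.33 for numbers 1 to 4. Differently numbered pairs spanned -0.29 to 0.21. For each control the same-numbered knockout had the highest correlation, and the unpaired fits do not use this. Knockout 5 has no partner, so the block estimates equal those without knockout 5. Positions and mRNA lengths (longest coding transcript) are from GENCODE 29 (GRCh38), matched on Ensembl IDs for all 42 genes.

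The members and lists were chosen with earlier results of these data known. Genes named with every library's value were 18 set by name, and MCM6, TYMS, CDC25C and BUB1 were added for their estimates. Of each other list the 4 smallest p-values and 7 genes set by name are given. An item set by name is not reported here.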

Additional observations from a re-analysis of the deposited data

Results flagged for a closer look

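Of 120 gene and clone groups examined (60 genes), 14 held 1 library whose gap to its nearest neighbour passed Dixon's critical value. Chance flags about 1 in 20 independent groups, but these groups share the same 9 libraries and are not independent. The rule was applied to normalized counts without coding-gene scaling. Control 3 was the high library for 5 genes (normalized counts, beside the next control): RRM1 (1511 against 927), TYMS (1541 against 802), PLK1 (1948 against 943), CDC20 (2297 against 1095) and AURKA (1023 against 530.2). Knockout 3 was the high knockout library for 6: MCM3 (2113 against 1614), MCM6 (970.0 against 691), CCNA2 (1667 against 1106), CCNB1 (2913 against 1977), CDC25C (449 against 333) and CDK4 (1514 against 1059). These 2 libraries also had the highest coding-gene levels of their clones. Knockout 2 stood high for CCND2 (2802 against 1891) and CDKN1A (687 against 229), and knockout 4 stood low for CCND1 (353 against 485).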

How the results depend on the processing

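The count of 0 called among the 42 genes, and in each other list, held under each alternative run and with each library left out. Over 630 pairs of gene and alternative the smallest adjusted p was 0.31 (CDC6 with the replicate block). The number of all rows called was 150 in limma, 781 with DESeq2, 43 with the replicate block, and 80 to 184 with 1 library left out (81 without control 2, 97 without knockout 2, 80 without knockout 4, 82 without knockout 5). The block changed no call among the 42. For 7 genes (MCM6, CDC6, TYMS, CCND1, CDC25C, BUB1 and CENPE) the sign held throughout, though not the size. The sign turned in 83 of the 630, always without a call. Log2 fold changes that turned were, with coding-gene scaling, 0.11 for MCM4, 0.0089 for MCM5, 0.047 for CDT1, 0.022 for GINS1, 0.058 for GINS2, 0.022 for RRM2, 0.011 for FOXM1, 0.045 for TTK, 0.087 for CENPF, 0.064 for KIF11 and 0.013 for CDKN1B. With DESeq2 they were -0.023 for CDK2, -0.049 for CCNA2, -0.038 for PLK1, -0.033 for AURKA and -0.032 for AURKB, with edgeR 0.017 for CENPF, and with the replicate block 0.047 for CDT1 and 0.010 for TTK. Leaving out 1 library gave ranges across 0 of -0.42 to 0.13 for MCM2, -0.44 to 0.085 for MCM3, -0.31 to 0.26 for MCM4, -0.30 to 0.12 for MCM5, -0.36 to 0.033 for MCM7, -0.24 to 0.14 for CDT1, -0.037 to 0.13 for CDC45, -0.36 to 0.17 for GINS1, -0.38 to 0.23 for GINS2, -0.39 to 0.17 for PCNA, -0.22 to 0.073 for RRM1, -0.41 to 0.12 for RRM2, -0.12 to 0.21 for CCND2, -0.51 to 0.095 for CCNE1, -0.28 to 0.044 for CCNE2, -0.093 to 0.20 for CDK2, -0.32 to 0.012 for E2F1, -0.14 to 0.28 for CCNA2, -0.41 to 0.11 for CCNB1, -0.017 to 0.32 for CCNB2, -0.011 to 0.22 for CDK1, -0.090 to 0.37 for PLK1, -0.34 to 0.22 for FOXM1, -0.32 to 0.010 for BUB1B, -0.19 to 0.035 for TTK, -0.37 to 0.074 for CDC20, -0.31 to 0.13 for UBE2C, -0.083 to 0.28 for AURKA, -0.10 to 0.21 for AURKB, -0.30 to 0.061 for BIRC5, -0.10 to 0.045 for CENPF, -0.24 to 0.20 for KIF11, -0.048 to 0.22 for KIF20A, -0.027 to 0.19 for TOP2A, -0.034 to 0.21 for MKI67, -0.28 to 0.063 for CDKN1B and -0.33 to 0.086 for CDK4. Ranges that kept their sign were -0.68 to -0.25 for MCM6, -0.52 to -0.16 for CDC6, 0.071 to 0.43 for TYMS, -0.62 to -0.28 for CCND1, 0.029 to 0.37 for CDC25C, 0.091 to 0.36 for BUB1, 0.014 to 0.30 for CENPE, -0.63 to -0.24 for CHAF1A, 0.16 to 0.25 for POLE2, 0.17 to 0.41 for POLA2, 0.13 to 0.20 for ORC6, 0.33 to 0.60 for BUB3, 0.24 to 0.37 for KIF18A, 0.18 to 0.54 for NEK2, -0.44 to -0.14 for ANLN, 0.24 to 0.33 for RBL2, -0.32 to -0.21 for E2F7, -0.95 to -0.41 for CDKN1C, -0.67 to -0.25 for CDK6, -0.89 to -0.21 for CDKN1A, -1.58 to -0.57 for CDKN2A, -0.48 to -0.12 for RB1 and -0.72 to -0.12 for CCND3. The lowest value came most often without control 1 and the highest most often without control 3. The cause was not tested. The lowest depth among the 42 genes was 50 reads in a library, for CCNE2.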
